A study of Mus musculus with 27 samples.

Results

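Mouse liver organoids that received TGF-β1 and then an extract of the brown seaweed Sargassum japonica (3 libraries) were compared, over all genes, with organoids that received TGF-β1 alone (3 libraries). These 6 of the 27 RNA-seq libraries in the series were chosen by their labelled treatment, without use of any measured value. All were grown from healthy mouse liver in Matrigel, a basement membrane gel, expanded, and moved to differentiation medium for 4 to 5 days. The extract group was exposed to TGF-β1 for 24 h and to the extract for a further 24 h. A group of 3 libraries from organoids given neither agent, deposited in the same table, is used as the background. The labels name no mouse strain, age, dose or vehicle, and do not say whether the organoids given TGF-β1 alone were kept for the further 24 h, so the extract and added time in culture cannot be told apart here. They also do not say whether replicates came from separate mice or cultures, so a p-value here reflects only how far these libraries scatter, and that scatter may be technical.

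TGF-β1 is a secreted cytokine, held in the matrix in a latent form, that signals through the receptors TGFBR2 and TGFBR1. These phosphorylate SMAD2 and SMAD3, which bind SMAD4, enter the nucleus and switch on matrix genes together with feedback inhibitors such as SMAD7, SKIL and PMEPA1. In the liver it is best known for turning stellate cells into collagen-secreting myofibroblasts, and in epithelia for slowing the cell cycle. Organoids expanded from adult liver in Matrigel are an epithelium with bile duct features, so they show the epithelial side of this response. Brown seaweeds are known for sulfated polysaccharides such as fucoidan, for phlorotannins and for iodine.

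Gene expression in the 9 libraries was that of a duct-like epithelium, with secretory and intestinal absorptive genes expressed as well. Of 19 cholangiocyte and progenitor markers, 17 averaged over 1 CPM (read counts scaled to library size), and their summed level was 10900 to 12500 CPM in the 6 libraries compared. Defining mesenchymal genes were near 0: Vim, a filament of mesenchymal cells, reached at most 0.138 CPM in any library, and Acta2, the smooth muscle actin of myofibroblasts, also reached at most 0.138 CPM. The summed level of the stellate and myofibroblast list was 4.13 to 8.64 CPM in the 6 libraries, and 3 of its genes had no read in any of the 9. Hepatocyte markers summed to 246 to 302 CPM, macrophage markers to 18 to 44 CPM, with 11 of 20 at 0 in every library, and endothelial markers to 7.32 to 16 CPM. T, B and NK cell markers summed to 0.996 to 3.93 CPM. Secretory epithelial genes summed to 1760 to 7240 CPM in the 6 libraries, lowest in extract replicate 3, with 8 of 21 averaging over 1 CPM. Intestinal absorptive genes summed to 1920 to 2560 CPM, with 13 of 20 averaging over 1 CPM. In bulk RNA, fewer cells of a type and less RNA per cell cannot be told apart.

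The libraries held 44.5 to 60.6 M reads assigned to genes, and 2 of them stood apart. Extract replicate 3 had a score of 95.3 on the first principal component, which held 62.2% of the variance, and untreated replicate 3 scored 79.6. The other 7 libraries lay between -27.2 and -23.2. Both libraries carry the number 5 in their labels, as does TGF-β1 replicate 2, which lay with the rest. Over 9261 well-expressed genes, the median absolute log2 difference was 0.056 between extract replicates 1 and 2, and 0.055 to 0.094 between either of them and the TGF-β1 libraries. Extract replicate 3 differed from its own group mates by 0.267 and 0.276, and from untreated replicate 3 by 0.201. Extract replicate 1 was farther from each TGF-β1 library than from replicate 2, while replicate 2 was about as near to TGF-β1 replicates 2 and 3 (0.057 and 0.055) as to replicate 1. The labels name no cause for the separation and none was tested. Call counts are therefore given with all libraries and without these 2, and other values name the version they come from. Extract differences given as without replicate 3 come from the fit without both libraries. Their standard errors, intervals and p-values thus leave out untreated replicate 3 too. Those given as with replicate 3 come from the fit of all 9 libraries.

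**Figure D1:**
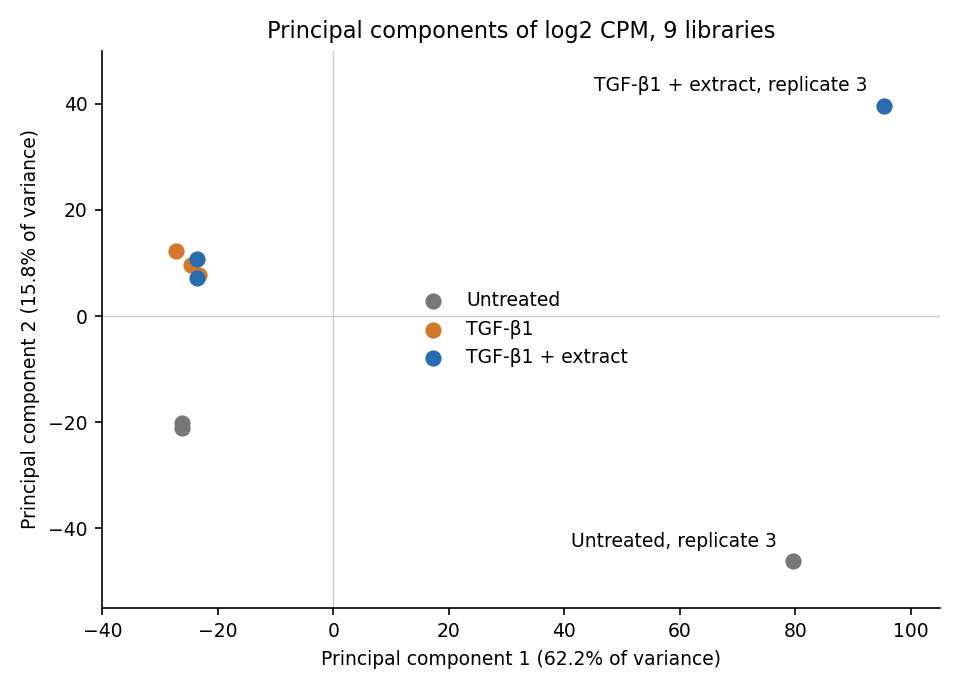
Principal component scores of the 9 libraries, with the share of variance on each axis, from log2 CPM. Extract replicate 3 and untreated replicate 3 lie far to the right (95.3 and 79.6 on the first component), and extract replicates 1 and 2 lie among the TGF-β1 libraries.

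No gene passed the test for an extract effect after TGF-β1. With all 9 libraries in the fit, limma called 0 of 14116 genes at an adjusted p under 0.05 (Benjamini-Hochberg), a background of 0%. At an unadjusted p under 0.05 it gave 271 genes, 1.92% of those tested, and the smallest adjusted p was 0.766. Without the 2 libraries that stand apart it again called 0 of 14116 genes (0%), with 917 genes, or 6.5%, at an unadjusted p under 0.05 and a smallest adjusted p of 0.0759. A second method, limma voom on the recovered read counts, also called 0 genes in both versions. Leaving out extract replicate 3 alone called 0 as well, with 152 genes (1.08%) at an unadjusted p under 0.05 (limma). Without the 2 libraries, leaving out TGF-β1 replicate 2 as well gave 12 calls, and testing without a filter on low reads gave 17. Several of the 17 share the same difference, such as Grpr, Nptx1 and Gm14461 at 1.02 ± 0.04 (SE) each. They are not read as an extract effect.

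TGF-β1 itself gave a large response in the same 7 libraries. Against untreated replicates 1 and 2, the test called 3309 of 14116 genes, or 23.4%, of which 1630 rose and 1679 fell. With all libraries in the fit it called only 3, or 0.0213%, and all fell. These were Pdk2, a kinase that restrains pyruvate dehydrogenase, Cyp4a12a, a fatty acid hydroxylase, and Aoc1, a diamine oxidase, named here after their values were seen. Both comparisons use the same TGF-β1 libraries, with opposite sign, so scatter in those libraries moves the 2 values of a gene in opposite directions. Their values are set side by side below, and no correlation between them was computed. An extract difference opposite in sign to that of TGF-β1 is therefore not read as a reversal. Counts of list members that rose or fell with TGF-β1 come from the 7 libraries, where 23.4% of all genes tested were called. A list near that share is not read as a response of its own.

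The size of the differences can be bounded. Among 9173 genes averaging at least 10 CPM in the 7 libraries, the median absolute log2 difference between extract and TGF-β1 was 0.05 without the 2 libraries, against 0.113 between TGF-β1 and untreated. In that version none of these genes lay 1 log2 unit apart with the extract, and 0 lay 0.5 higher and 3 lay 0.5 lower. With all libraries the median absolute extract difference was 0.11, and 133 genes lay 0.5 higher and 276 lower, of which 15 and 58 lay 1 apart. The counts for TGF-β1 without the 2 libraries were 78 higher and 211 lower by 0.5. The 95% interval of the extract difference lay within ±1 for 12361 of the 14116 genes (87.6%) and within ±0.5 for 10496 (74.4%). With all libraries those counts were 10293 (72.9%) and 6707 (47.5%). For most genes a doubling was therefore outside the interval once the 2 libraries were left out. The median half-width of the interval was then 0.164. The 2 libraries were left out because of their own values, so this narrower interval omits the spread between replicates that they show.

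**Figure D2:**
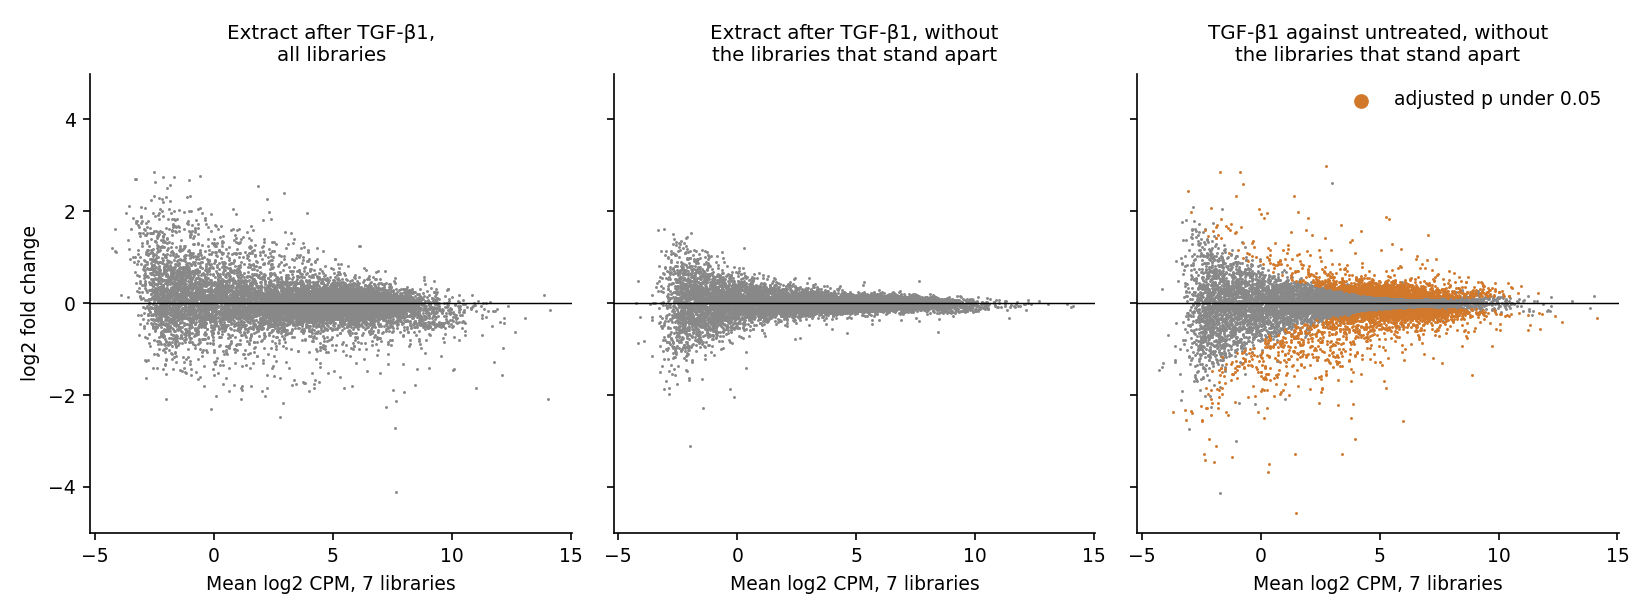
Log2 difference against mean level (log2 CPM) for every tested gene, for the extract with all libraries, the extract without the 2 libraries that stand apart, and TGF-β1 against untreated without them. Orange points pass an adjusted p of 0.05; there are 0 in both extract panels and 3309 in the TGF-β1 panel.

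Among the 8 fibrosis and lineage genes chosen for naming, Col1a1, a chain of the main scar collagen, was barely expressed in these organoids. It stood at 0.887, 0.582 and 0.405 CPM with TGF-β1 and at 0.563, 0.687 and 2.81 CPM with the extract, and at 0.811 to 0.941 CPM without either agent. Extract replicates 1 and 2 lay within the range of the TGF-β1 libraries, and replicate 3 was above all other libraries. The log2 difference was 0.06 ± 0.34 (SE) without the 2 libraries (limma, adjusted p = 0.985) and 0.76 ± 0.57 with them. Col3a1, another scar collagen, had reads in 1 library only, an untreated one at 0.23 CPM.

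Timp1, an inhibitor of matrix metalloproteinases, stood at 2.68, 2.49 and 2.18 CPM with TGF-β1 and at 2.14, 1.99 and 4.4 CPM with the extract. Replicates 1 and 2 lay just below the TGF-β1 libraries and replicate 3 above them, and the log2 difference without replicate 3 was -0.24 ± 0.18, with an interval of -0.63 to 0.15. With replicate 3 it was 0.12 ± 0.33.

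The lineage markers gave a similar picture. Krt19, a keratin of duct cells, stood at 1970, 1890 and 2010 CPM with TGF-β1 and at 1800, 1900 and 2190 CPM with the extract, so the groups overlapped. Alb, the main plasma protein of hepatocytes, stood at 4.52, 6.43 and 5.78 CPM with TGF-β1 and at 8.53 and 5.69 CPM in extract replicates 1 and 2. Its log2 difference was 0.33 ± 0.18 without replicate 3 and -2.16 ± 1.80 with all libraries, and was not called in either, after a fall of 1.14 with TGF-β1 (limma, adjusted p = 0.000549). Extract replicate 3 had no Alb read, which at its depth lies under a floor of 0.0502 CPM (3 reads), at least 142-fold lower than its group mates.

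**Figure D3:**
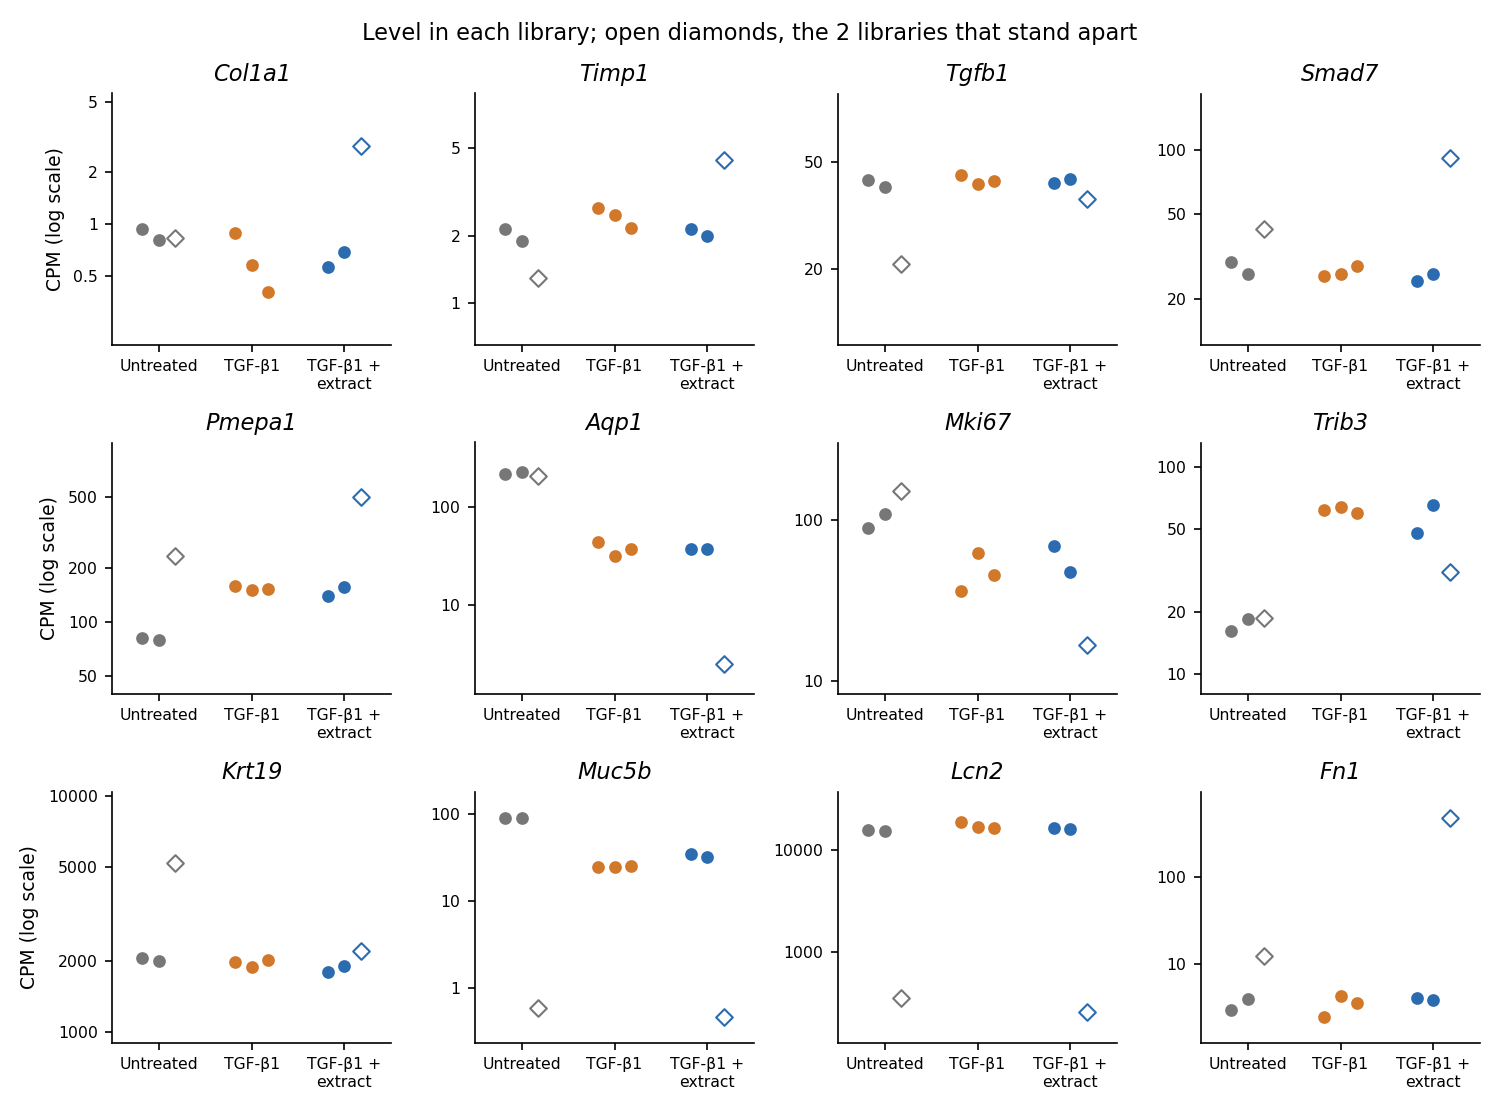
CPM of 12 genes in each of the 9 libraries on log axes, grouped as untreated, TGF-β1 and TGF-β1 plus extract; open diamonds are the 2 libraries that stand apart. Filled points of the last 2 groups lie close together for most genes, while the extract diamonds of Fn1, Lcn2, Muc5b and Aqp1 fall far from their groups.

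Of 20 genes for TGF-β family ligands, receptors and latency proteins, 3 rose and 4 fell with TGF-β1, and none was called with the extract. Tgfb1, which encodes the ligand itself, stood at 44.8, 41.4 and 42.6 CPM with TGF-β1 and at 41.8, 43.2 and 36.3 CPM with the extract. Its log2 difference was -0.01, with an interval of -0.13 to 0.11 without replicate 3. Tgfb3 had fallen by 1.11 with TGF-β1 (limma, adjusted p = 0.0013) and stood at 1.82 to 2.79 CPM with TGF-β1 and at 2.51 and 3.02 CPM in extract replicates 1 and 2, a difference of 0.32 ± 0.19 that was not called; with all libraries it was -0.36 ± 0.67. Ltbp4, which tethers latent TGF-β to matrix, had risen by 1.60 with TGF-β1 (limma, adjusted p = 1.11e-05). It then stood at 4.92, 5.3 and 5.48 CPM with TGF-β1 and at 4.65, 5.37 and 6.64 CPM with the extract, again overlapping.

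The receptors and signal carriers were close to level. Tgfbr1 stood at 124, 130 and 121 CPM with TGF-β1 and at 136, 127 and 181 CPM with the extract. Tgfbr2, the ligand-binding receptor, stood at 210, 230 and 217 CPM and at 227, 228 and 277 CPM. Without replicate 3 the log2 differences of both were under 0.1, and those of Smad2, Smad3 and Smad4 lay between -0.01 and 0.11, none of them called. Over 15 tested SMAD and feedback genes of 16 listed, the median log2 difference was 0.05 without the 2 libraries, against -0.00 over all genes tested, and 0.27 with them.

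Pmepa1, a membrane protein that sequesters SMADs and limits the pathway, had the largest rise with TGF-β1 among the SMAD and feedback genes. It lies at chr2:173224458-173276731 (mm10, RefSeq gene span). It stood at 81.8 and 80.1 CPM in untreated replicates 1 and 2 and at 160, 152 and 153 CPM with TGF-β1, a rise of 0.94 on the log2 scale (limma, adjusted p = 2.29e-07). With the extract it stood at 140, 158 and 499 CPM. Replicates 1 and 2 stayed at the TGF-β1 level, with a difference of -0.06 and an interval of -0.17 to 0.05, while replicate 3 was above every other library. With all libraries the difference was 0.52 ± 0.55. Smad7, the inhibitory SMAD, stood at 25.6, 26.3 and 28.5 CPM with TGF-β1 and at 24.4, 26.2 and 91.9 CPM with the extract, in the same arrangement. Ski, a co-repressor of SMADs, was higher in all 3 extract libraries (75.5, 76.7 and 140 CPM) than in the TGF-β1 libraries (68.1, 68.7 and 70.5 CPM), but with a difference of 0.14 without replicate 3 it was not called (limma, adjusted p = 0.747).

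Of 28 listed TGF-β target genes, 25 could be tested. With TGF-β1, 6 rose and 10 fell; with the extract none was called and none had an unadjusted p under 0.05. Their median extract difference was 0.05 without the 2 libraries, with the interval of 20 of the 25 within ±0.5, and 0.35 (range -0.08 to 2.77) with all libraries. Members that fell with TGF-β1 include the BMP-responsive genes Id1 and Id3, which encode inhibitors of differentiation factors. Id1 stood at 118 and 117 CPM in untreated replicates 1 and 2, at 81.4, 83.6 and 89.4 CPM with TGF-β1 and at 86.8, 82 and 99 CPM with the extract. Id3 stood at 3.11, 4.36 and 4.53 CPM with TGF-β1 and at 5.97, 4.17 and 40.6 CPM with the extract, and was not called (difference 0.34 ± 0.19 without replicate 3, 1.34 ± 0.77 with it). In extract replicate 3 the median target lay 0.74 above replicates 1 and 2, with 11 of 25 at least 1 higher and 0 at least 1 lower. In untreated replicate 3, which received no TGF-β1, the same median was 0.76 above its group mates.

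Matrix genes were sparse. Of 15 fibrillar and other collagens only 8 passed the filter on low reads, and none was called with the extract. Their median difference was 0.05 without the 2 libraries and 0.72 with all libraries. Of 20 basement membrane genes, 14 were tested, of which 4 rose and 1 fell with TGF-β1 and 0 were called with the extract (median 0.01 without the 2 libraries, 0.15 with them). Lama3, a laminin chain that anchors epithelia, stood at 60, 74.4 and 76.6 CPM with TGF-β1 and at 73.4, 82.2 and 754 CPM with the extract. Its replicates 1 and 2 lay at the upper edge of the TGF-β1 libraries and were not called. Among matrix proteases and their inhibitors, 15 of 24 were tested, 2 rose and 5 fell with TGF-β1, and 0 were called with the extract. Mmp13, a collagenase, was among the 10 genes with the smallest p without the 2 libraries: it stood at 0.928, 0.465 and 0.54 CPM with TGF-β1 and at 0, 0.108 and 0.603 CPM with the extract. Replicates 1 and 2, with 0 and 6 reads, lay below the TGF-β1 libraries and replicate 3 within their range (limma, adjusted p = 0.747). Mmp7, a matrilysin of duct epithelium, had fallen by 0.94 with TGF-β1 (limma, adjusted p = 2.49e-05), and stood at 749, 647 and 686 CPM with TGF-β1 and at 814, 659 and 152 CPM with the extract.

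Genes of cell division moved one way with TGF-β1. All 24 tested G2/M genes fell with TGF-β1, with a median of -1.02. With the extract none was called and none reached an unadjusted p of 0.05, although all 24 differences were above 0 without replicate 3 (0.03 to 0.35, median 0.19); the intervals of 24 lay within ±1 and of 9 within ±0.5. With all libraries the median was on the other side of 0, at -0.25 (range -0.61 to 0.09), again with 0 called. Mki67, the proliferation antigen, stood at 89.5 and 108 CPM untreated, at 36, 62 and 45.6 CPM with TGF-β1 and at 69, 47.4 and 16.6 CPM with the extract. The extract libraries spanned a wider range than the TGF-β1 libraries and overlapped them, with a difference of 0.29 (interval -0.10 to 0.69) without replicate 3 and -0.30 ± 0.49 with it. S phase genes differed: 10 of 25 rose with TGF-β1, and their extract median was -0.02 without the 2 libraries and -0.27 with them.

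The ATF4 amino acid response, which raises amino acid synthesis and transport under stress, was raised by TGF-β1. Of 21 genes, 18 rose and 1 fell with TGF-β1 (median 0.57), and 0 were called with the extract (median -0.09, range -0.25 to 0.09, without the 2 libraries; median -0.42, range -0.88 to 0.39, with them). Trib3, a pseudokinase that damps ATF4, stood at 16.1 and 18.5 CPM untreated, at 62, 64.3 and 60 CPM with TGF-β1 and at 47.9, 65.7 and 31.1 CPM with the extract. Asns, asparagine synthetase, stood at 95.1 and 119 CPM, at 208, 209 and 204 CPM, and at 177, 209 and 96.2 CPM in the same order. In both genes extract replicate 2 sat with the TGF-β1 libraries, replicate 1 somewhat below and replicate 3 lowest.

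Transport and detoxification genes that TGF-β1 lowered stayed low with the extract. Aqp1, a water channel of bile duct epithelium, stood at 218 and 230 CPM untreated, at 44.4, 31.6 and 37.8 CPM with TGF-β1 and at 37.1, 37.9 and 2.49 CPM with the extract. It fell by 2.57 with TGF-β1 (limma, adjusted p = 4.37e-09), and its extract difference without replicate 3 was -0.00 ± 0.10, and -1.30 ± 0.92 with it. Cyp2d10, a drug-metabolising P450, stood at 29.5 and 27.4 CPM untreated, at 4.98, 6.27 and 7.21 CPM with TGF-β1 and at 7.29, 4.95 and 5.12 CPM with the extract. Of 11 tested P450 genes, 8 fell with TGF-β1 and 0 were called with the extract (median 0.02 without the 2 libraries, 0.24 with them). The cholangiocyte list itself had 3 rises and 7 falls among 17 genes with TGF-β1, and extract differences between -0.12 and 0.07 without the 2 libraries, or -1.30 and 0.69 with them. Thyroid hormone genes, of interest because brown seaweeds hold iodine, gave no call: Dio1, a deiodinase, stood at 4.19, 3.26 and 3.97 CPM with TGF-β1 and at 5.06, 3.47 and 1.32 CPM with the extract.

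Small shifts appeared in some lists without any call, and are given as descriptions without the 2 libraries. All 28 ribosomal protein genes were lower with the extract (-0.21 to -0.04, median -0.13), 15 of them at an unadjusted p under 0.05, against 6.5% of all genes. Their summed level was 27000, 24300 and 25200 CPM with TGF-β1 and 22900, 23900 and 12100 CPM with the extract. TGF-β1 replicate 1 thus lay farthest from extract replicates 1 and 2, and TGF-β1 replicate 2 was near extract replicate 2. With TGF-β1 14 of the 28 had risen, by a median of 0.17 over the list. Of 24 cholesterol synthesis and uptake genes, 7 had an unadjusted p under 0.05 (list median -0.08, range -0.16 to 0.01), and 12 had fallen with TGF-β1. Of 23 respiratory chain genes, 6 had an unadjusted p under 0.05 (list median -0.09, range -0.28 to 0.05), and 9 had risen with TGF-β1. Of 18 clock genes, 6 had an unadjusted p under 0.05, all higher with the extract: Per1, Per2, Per3, Nr1d1, Nr1d2 and Tef. The clock list as a whole ranged from -0.11 to 0.35 (median 0.1). Nr1d2, a clock repressor, stood at 58.7, 62.4 and 62 CPM with TGF-β1 and at 70.2, 67.2 and 73.5 CPM with the extract, so the groups did not overlap, and the difference was 0.17 ± 0.05 (limma, adjusted p = 0.747). With all libraries the list medians were -0.44 for ribosomal proteins, -0.48 for cholesterol, -0.24 for the respiratory chain and -0.05 for the clock. When TGF-β1 replicate 2 was also left out, 12 of 14116 genes were called. Of these, 5 were ribosomal protein or respiratory chain genes, all lower: Rpl37a (-0.32), Rps27 (-0.38), Rps9 (-0.38), Ndufa1 (-0.39) and Ndufa8 (-0.49). Ndufa1 alone of these 5 is on the lists. The calls use the same libraries as the list values, so they are no separate support for them. The share of such genes among all genes tested was not computed. The hour of harvest is not given in the labels.

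**Figure D4:**
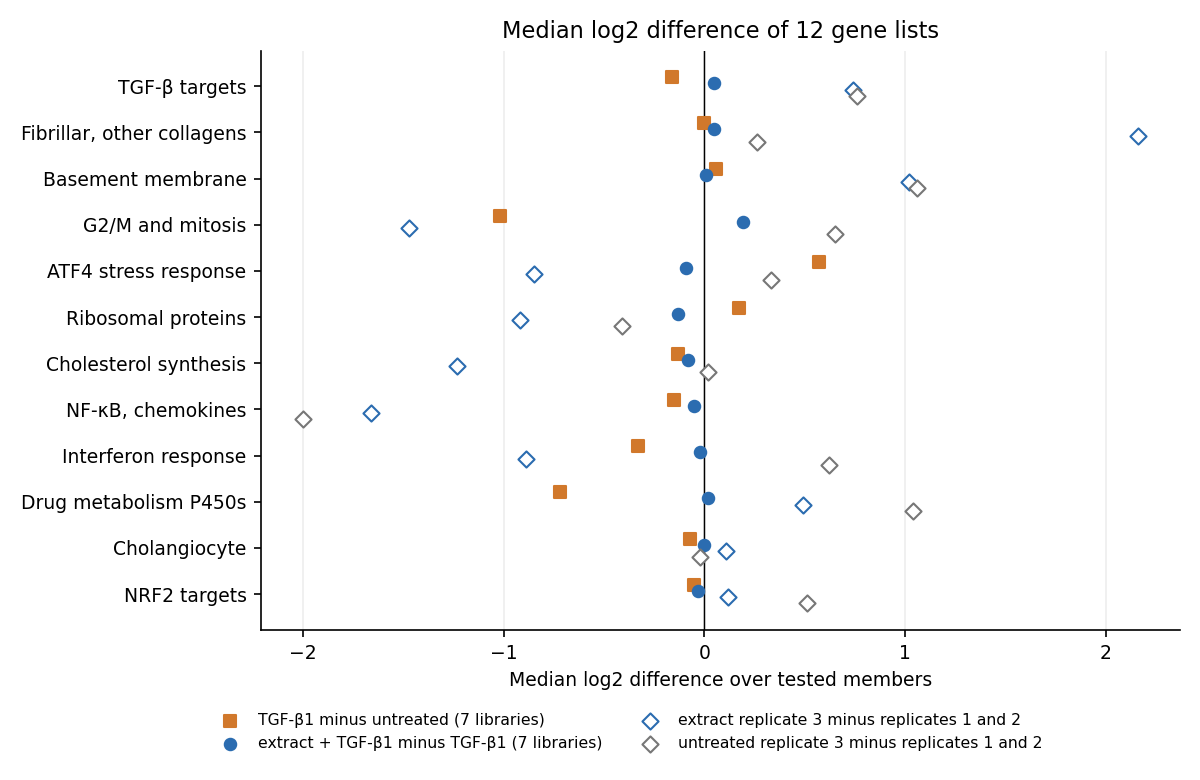
Median log2 difference of 12 gene lists for TGF-β1 against untreated and for the extract against TGF-β1, both without the 2 libraries that stand apart. Open diamonds show those 2 libraries, extract replicate 3 and untreated replicate 3, each against replicates 1 and 2 of its own group. Extract medians without the 2 libraries lie between -0.13 and 0.19 for the lists shown, while G2/M genes reach -1.02 with TGF-β1 and NF-κB targets reach -1.66 in extract replicate 3.

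The genes nearest to a call were named after their values were seen. Muc5b, a secreted gel-forming mucin, lies at chr7:141839059-141873089 (mm10, RefSeq gene span). It stood at 88.7 and 89.6 CPM untreated, at 24.7, 24.4 and 25.3 CPM with TGF-β1, and at 34.2, 31.7 and 0.469 CPM with the extract. It fell by 1.84 on the log2 scale with TGF-β1 (limma, adjusted p = 4.06e-10). Extract replicates 1 and 2 lay above all TGF-β1 libraries, by 0.41 ± 0.06 (interval 0.29 to 0.53, adjusted p = 0.0759, limma), and replicate 3 far below them, so that the difference over all libraries was -1.60 ± 2.19. Without the 2 libraries that stand apart, Muc5b passed when libraries were scaled by size only (limma, adjusted p = 0.0477) or weighted (limma, adjusted p = 0.0376). It also passed when TGF-β1 replicate 2 was left out in addition (limma, adjusted p = 0.0275). Muc4, a membrane mucin at chr16:32735886-32782391, stood at 349 and 332 CPM untreated, at 110, 134 and 178 CPM with TGF-β1 and at 202, 183 and 217 CPM with the extract. All 3 extract libraries lay above the TGF-β1 libraries (0.48 ± 0.13 without replicate 3, limma, adjusted p = 0.747), and it passed only with a replicate block (limma, adjusted p = 0.0283).

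Cst3, the secreted protease inhibitor cystatin C, had the smallest unadjusted p with all libraries. It stood at 55.2, 52.2 and 54.4 CPM with TGF-β1 and at 44.6, 45.2 and 40.1 CPM with the extract, with no overlap, and its difference was -0.32 ± 0.08 with replicate 3 (limma, adjusted p = 0.766) and -0.26 ± 0.06 without it (limma, adjusted p = 0.747). Untreated libraries stood at 44.7 to 51.4 CPM. Bcat2, a mitochondrial branched-chain aminotransferase, was lower by 0.26 ± 0.06 without replicate 3 and was not called, and in replicate 3, at 38.8 CPM, it was near the TGF-β1 libraries (40.2 to 43.3 CPM).

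Extract replicate 3 differed from replicates 1 and 2 in more genes than these differed from each other. Of 14116 genes, 1402 (9.93%) lay at least 1 log2 unit higher and 1130 (8.01%) at least 1 lower, without a test, as this is a single library. Replicates 1 and 2 differed by as much in 380 genes (2.69%), and untreated replicate 3 differed from its group mates in 1974 genes (14%). Extract replicate 3 and untreated replicate 3 in turn differed from each other in 1744 genes. These counts are descriptions of libraries, and what set the 2 libraries apart was not tested.

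The 10 genes most above and the 10 most below replicates 1 and 2 were named by rank. Fn1, fibronectin, an adhesive matrix protein at chr1:71585473-71653280 (mm10, RefSeq gene span), stood at 4.09, 3.92 and 486 CPM in extract replicates 1 to 3. The third was 121-fold higher than its group mates and 39.1-fold higher than untreated replicate 3 (12.4 CPM). Itga5, a chain of the fibronectin receptor, stood at 1.02, 0.578 and 98 CPM, and at 3.54 CPM in untreated replicate 3. Fn1 and Itga5 were thus high in 1 of the 9 libraries. Igfbp4, a binding protein for insulin-like growth factors, stood at 30.5 CPM in extract replicate 3 and 19.5 CPM in untreated replicate 3, against at most 0.282 CPM in the other 7 libraries. Krt14, a basal keratin, stood at 19.1 and 87.6 CPM in the same 2 libraries and at most at 0.465 CPM elsewhere.

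Of the 10 lowest genes, 7 encode secreted proteins, among them defence and acute-phase proteins, and several were low in untreated replicate 3 as well. Lcn2, a siderophore-binding defence protein, stood at 16700, 16200 and 258 CPM with the extract, 63.8-fold lower in replicate 3, and at 358 CPM in untreated replicate 3. Chi3l1, a chitinase-like protein, stood at 204, 161 and 0.77 CPM, and at 0.516 CPM in untreated replicate 3. C3, the central complement protein, stood at 2270, 1890 and 39.4 CPM, and at 64.7 CPM. Saa3, an acute-phase serum amyloid, had 215 and 133 CPM in extract replicates 1 and 2 and only 2 reads in replicate 3. An exception was Trf, transferrin, which stood at 2.36 CPM in extract replicate 3 but at 48.4 CPM in untreated replicate 3.

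**Figure D5:**
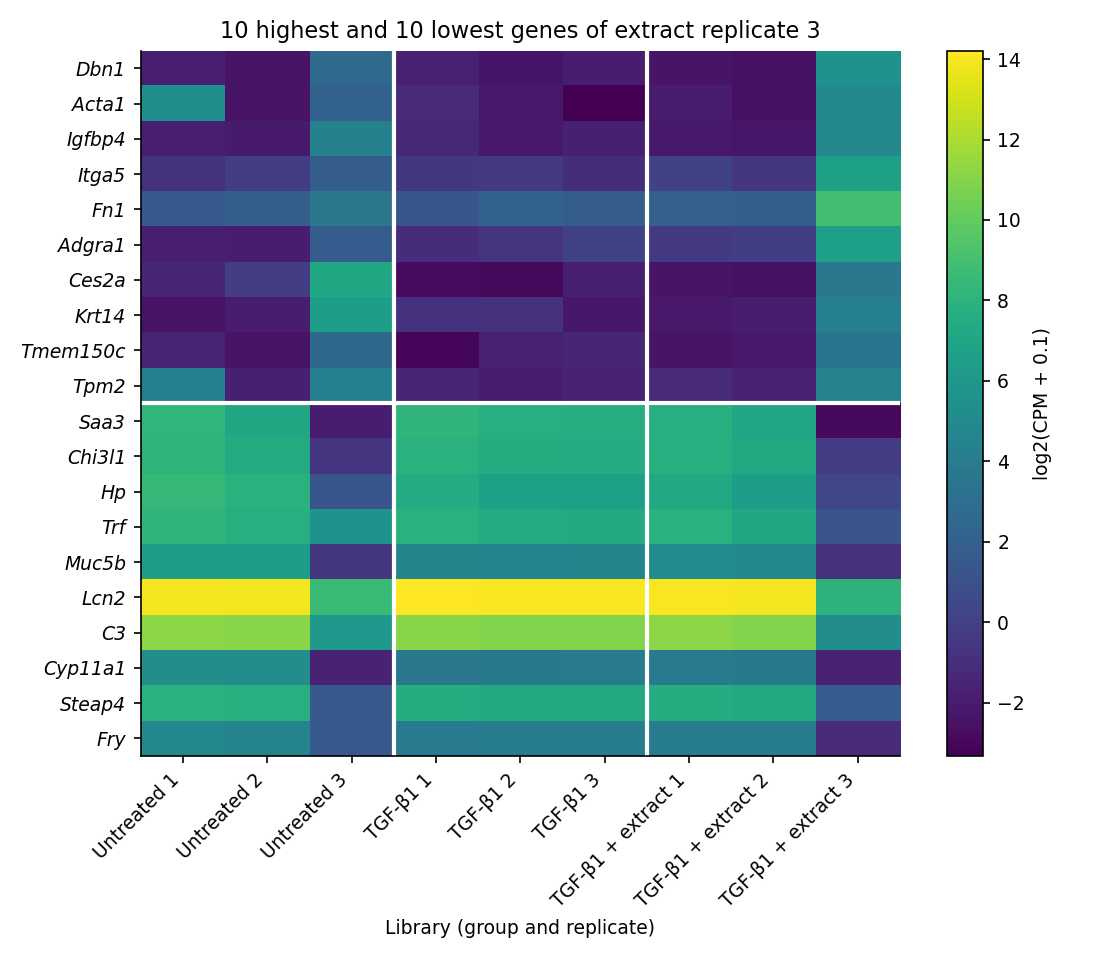
Heat map of log2(CPM + 0.1) of the 10 genes most above and the 10 most below extract replicates 1 and 2 in extract replicate 3, across the 9 libraries. Untreated replicate 3 shares the low values of most genes and the high values of some, but not that of Fn1 (12.4 against 486 CPM).

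NF-κB targets, the cytokine and feedback genes of inflammatory signalling, were the list lowest in extract replicate 3 among those plotted. Of 27 tested, 17 lay at least 1 lower and 2 at least 1 higher than in replicates 1 and 2 (median -1.66), and the median in untreated replicate 3 was -2.0. In replicates 1 and 2 the list was close to the TGF-β1 libraries, with a median of -0.05 and 0 called; with all libraries the median was -0.55. To show what such a target looks like, the members' proximal promoters from RefSeq were searched for the NF-κB motif on both strands, with no other motif searched. It was present in 10 of the 22 members with a promoter, against 9.55% of 27025 genes (8.46% of 32851 windows) with windows of 300 bases, 250 upstream and 50 downstream of the start. Among these 22, 13 were at least 1 lower in extract replicate 3 and 7 of those held it, and of the other 9, 3 did. The rest of the 17 lower members had no promoter to search. The list was assembled as NF-κB targets, so its share of promoters with the motif says nothing about the low values of this library. A match is a run of letters and not a measured site. The 150 bases upstream of 2 chemokine genes are shown as examples, in GRCm38.p6 (mm10), plus strand, with the matched letters in capitals: Cxcl1 at chr5:90891095-90891244, where they lie 71 to 61 bases before the start as 2 overlapping matches, and Ccl20 at chr1:83116616-83116765, where they lie 80 to 71 bases before it on the reverse strand.
Cxcl1: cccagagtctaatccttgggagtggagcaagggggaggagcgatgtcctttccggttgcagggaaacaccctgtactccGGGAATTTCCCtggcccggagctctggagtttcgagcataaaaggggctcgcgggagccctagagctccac
Ccl20: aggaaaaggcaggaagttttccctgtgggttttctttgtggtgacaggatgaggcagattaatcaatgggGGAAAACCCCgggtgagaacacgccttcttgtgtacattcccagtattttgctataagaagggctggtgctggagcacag

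Cxcl1, which draws neutrophils, stood at 402, 427 and 378 CPM with TGF-β1 and at 393, 366 and 87.4 CPM with the extract, and at 77.4 CPM in untreated replicate 3. Ccl20, which draws CCR6-bearing lymphocytes, stood at 249, 236 and 234 CPM with TGF-β1 and at 207, 199 and 5.89 CPM with the extract, and at 12.3 CPM in untreated replicate 3. All 3 extract libraries thus lay below the TGF-β1 libraries for Ccl20, but the difference without replicate 3 (-0.24 ± 0.06) was not called (limma, adjusted p = 0.747). Il1a, an alarm cytokine, went the other way in replicate 3, at 68.3 CPM against 13.2 and 12.1 CPM. The epithelial genes Epcam, an adhesion molecule, and Cldn4, a tight junction protein, were high in that library: Epcam stood at 628, 638 and 1280 CPM in extract replicates 1 to 3 and Cldn4 at 107, 114 and 527 CPM. Epithelial genes did not move one way there. Of 17 tested cholangiocyte and progenitor genes, 3 lay at least 1 higher and 4 at least 1 lower than in replicates 1 and 2 (median 0.11). That list summed to 12500 CPM in extract replicate 3 and to 16400 CPM in untreated replicate 3.

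The extract effect after TGF-β1 was also set against that in the other extract comparisons of the series. Carbon tetrachloride (CCl4) is a liver toxin that causes fibrosis. Against organoids grown from mice with CCl4 fibrosis, which got the extract for 24 h in culture, the difference of the 2 effects was called for 0 of 13528 genes (0%) by limma, and for 0 under each alternative run, with 159 genes at an unadjusted p under 0.05. Against the liver tissue of such mice, with and without the extract, it was called for 736 of 12692 genes (5.8%), 457 with a higher value after TGF-β1 and 279 with a lower one. The tables were normalized separately, so only differences of effects were compared. Tissue, injury and extract exposure differ together, and the labels give no hours of extract for the liver. Cdh17, an intestinal and ductal cadherin, was lower with the extract in that liver by a log2 value of -3.29 and stood at 0.02 after TGF-β1 in organoids, a difference of 3.31 ± 0.44 (limma, adjusted p = 0.00148), or 3.24 without the 2 libraries that stand apart. Col1a1 stood at 278 ± 91.5 CPM (SD, n = 3) in CCl4 liver and 80.8 ± 16.1 CPM (SD, n = 3) with the extract, a difference of effects of 2.51 (limma, adjusted p = 0.038), or 1.80 without the 2 libraries that stand apart (limma, adjusted p = 0.0157). The extract effect differed for 17 of 24 G2/M genes, in each case with a higher value after TGF-β1 than in liver. Without the 2 libraries it did so for all 24, where 1409 of 12692 genes were called. The median extract effect over these 24 genes was -2.57 in liver. After TGF-β1 it was -0.25 with all libraries and 0.19 without the 2.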

How the data were processed

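Liver organoid RNA (1.2 µg) was extracted with TRIzol and sequenced from stranded poly(A) libraries, per the labels' protocols. The deposited values are log2 CPM per gene from the authors, and the submitters' processing notes name build mm10. The aligner, counter, annotation and scaling method were not given in the sources used here. From the values, each is the log2 CPM of a scaled library size with a prior count of 2; whole reads were recovered from them and every value came out whole within 0.05 reads.

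Genes with at least the CPM of 10 reads in 3 libraries and 15 reads in all were tested: 14116 of 27178. Group means were fitted to the log2 values over the 9 libraries of the table (or 7) with limma 3.58.1 in R 4.3.3, with a trended prior, no covariate and Benjamini-Hochberg adjustment over all genes tested; tests are two-sided. Differences of effects were fitted over 2 tables together. Tables and plots were made with Python 3.11.15, pandas 2.3.3, numpy 2.4.6 and matplotlib 3.10.9. CPM in the text are recovered reads over that library size, without the prior. Scripts were tested on simulated data.

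Members, gene lists and tests were chosen with earlier results of these data known. The genes named by rule were 8 fibrosis and lineage genes (1 of them is not reported here), the largest called changes and the called list members (none for the extract), the 10 genes most above and below in extract replicate 3, and the 5 largest differences of effects each way; list examples and the genes nearest to a call were chosen after their values were seen. Alternatives were voom, another scaling, no filter, array weights, a replicate block and leaving out libraries of the compared groups in turn.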

Additional observations from a re-analysis of the deposited data

Results flagged for a closer look

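The extract effect after TGF-β1 differed from that in CCl4 liver in 736 genes by limma's test of the difference itself. The 5 largest differences upward (log2, effect after TGF-β1 minus effect in liver) were Cdh17 at 3.31, Inava at 3.21, Oip5 at 2.93, Tubb6 at 2.87 and Ccdc18 at 2.81. In liver these stood between -3.29 and -1.96 with the extract; in organoids after TGF-β1 none was called. Oip5 and Ccdc18 are known from chromosome segregation, and Tubb6 is a tubulin. The 5 largest downward were Csad at -2.93, Vldlr at -2.66, Depp1 at -2.30, Mfsd2a at -2.22 and Macrod1 at -2.20. In liver these stood between 1.62 and 2.98 with the extract. Csad encodes an enzyme of taurine synthesis, Vldlr is a lipoprotein receptor and Mfsd2a carries lysophosphatidylcholine. Col1a1, one of the 8 genes chosen for naming, differed by 2.51. All 11 kept their direction without the 2 libraries that stand apart, with values from 1.80 to 3.35 upward and from -2.99 to -1.81 downward. The tables were normalized separately, and tissue, injury and extract exposure differ together, so their parts in these values cannot be told apart.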

How the results depend on the processing

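For the extract after TGF-β1 with all libraries, 18 of 18 alternatives called 0 genes, the replicate block among them. Without the 2 libraries that stand apart, 11 of 16 alternatives called 0. Scaling by library size only called 1 (Muc5b, adjusted p = 0.0477), array weights 1 (Muc5b, 0.0376), the replicate block 1 (Muc4, 0.66 ± 0.08, adjusted p = 0.0283) and no filter on low values 17; leaving out each extract or TGF-β1 library gave 0 to 12, the 12 without TGF-β1 replicate 2 (1 higher, 11 lower, Muc5b among them); untreated replicates 1 and 2 were not left out for this result. Correlations of same-numbered deviations from the group mean were 0.04, -0.04 and 0.02 between extract and TGF-β1 samples. They were 0.53, 0.58 and 0.72 between untreated and extract, whose replicates 3 both stand apart. Extract replicate 3 weighs on its group mean, so these values cannot show whether replicate numbers pair the samples. In the version without the 2 libraries, the block moved the genes at an unadjusted p under 0.05 (limma) from 917 to 1346. For TGF-β1 against untreated with all libraries, the 3 calls became 1 with the block, and 0 to 3 with a library left out. Without the 2 libraries, the 3309 became 1560 to 3072 with a library left out; 1560 and 1740 are without untreated replicates 1 and 2, each leaving 1 untreated library, assumed to vary like the others. For the difference from CCl4 liver, the 736 became 2054 (1939 higher, 115 lower) with library size only, which moved the median of all genes to 0.297, 1409 (836 and 573) without the 2 libraries, and 307 to 942 with a library left out: 307 without CCl4 plus extract liver replicate 3, 486 without its replicate 2, 340, 399 and 365 without TGF-β1 replicates 1, 2 and 3, and 454 and 387 without CCl4 liver replicates 1 and 3. The causes were not tested. Of 202 values of 6 of the fibrosis and lineage genes, 16 changed sign while uncalled and 0 were called (smallest adjusted p 0.191). With 2 or 3 libraries a group, the unadjusted 95% interval of the extract difference had a median half-width of 0.164 without the 2 libraries and 0.366 with them.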

Other observations

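Interferon-stimulated genes, antiviral effectors not described above, were close to level with the extract. Of 31 tested, 0 were called, and the median was -0.02 without the 2 libraries that stand apart and -0.32 with them. With TGF-β1 8 of them had fallen and 0 had risen, where 23.4% of all genes tested were called. In extract replicate 3 their median lay at -0.89 against replicates 1 and 2, with 13 at least 1 lower, while in untreated replicate 3 it lay at 0.62. Interferon genes thus lay on opposite sides of their group mates in the 2 libraries that stand apart, where NF-κB targets were low in both.

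Of 24 NRF2 antioxidant genes, 5 rose and 7 fell with TGF-β1, and 0 were called with the extract (median -0.03 without the 2 libraries, 0.05 with them). Of 10 aryl hydrocarbon receptor genes, which respond to many plant and algal compounds, 0 were called (median 0.07 in both versions). Timp3, a matrix-bound protease inhibitor, stood at 940, 1050 and 1010 CPM with TGF-β1 and at 925, 1020 and 53.8 CPM with the extract, against 882 CPM in untreated replicate 3, so its low value was in 1 of the 9 libraries.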
